A study of Homo sapiens with 4 samples.

Results

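The genes described here are 9 that take part in or report on signalling by transforming growth factor beta (TGF-beta) and the bone morphogenetic proteins (BMPs): ID1, ID2, ID3, SMAD6, SMAD7, SKI, SKIL, TGFBI and INHBA. They were taken as every probe set whose array annotation names a member, which gave 22 of the 54675 probe sets on the array and 9 of 19775 named genes. The set was partly chosen by measured values, the lower SKI signal in the ARHGAP8 line, so every difference between the lines is given as a description with no test. M14, an established human melanoma cell line, carried either FLAG-tagged ARHGAP8 (a variant without exon 5) in the pIRES2 eGFP plasmid or that plasmid empty, and both lines were kept in G418 and sorted for eGFP, so the controls carry eGFP and the drug selection too. Each line, 1 stable line per plasmid, was grown for 4 days in growth factor-reduced Matrigel (3D) or on plastic coated with type I collagen (2D). The 4 groups were therefore ARHGAP8 3D, ARHGAP8 2D, empty vector 3D and empty vector 2D, with 1 array each and no replicates.

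Ligands of this family bind pairs of receptor kinases at the cell surface, and the receptors phosphorylate SMAD proteins that then enter the nucleus and bind DNA. The ID genes are classic BMP targets and encode inhibitors of basic helix-loop-helix transcription factors. SMAD6 and SMAD7 encode inhibitory SMADs that are induced by the pathway and restrain it, and SKI and SKIL (also called SnoN) encode co-repressors that bind activated SMAD complexes. SKI protein is abundant in many human melanomas, in which TGF-beta is often present without arresting growth. TGFBI encodes a secreted matrix protein first cloned as a TGF-beta-induced gene, and INHBA encodes the beta A subunit that activin A and inhibin A share.

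Values are MAS5 signals, the brightness of a probe set on a linear scale, made by the authors. Signals below 72.3, the median over all probe sets and arrays, were treated as not told apart from background and set to that floor before log2 was taken; a ratio with a side at the floor is a bound. Of the 22 member probe sets, 8 were above the floor on all 4 arrays, 8 on some and 6 on none. A gene was represented by its probe set with the highest mean log2 signal, which is the first one named for it. By that measure 6 of the 9 genes were above the floor on all 4 arrays, and 7 were above it on at least 2 and were tested. Signals of different probe sets are not set against each other, since brightness depends on the probe. Because the number of arrays is 1 per group, it limits the precision of every value.

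Some features of the arrays touch all results. The 4 probe sets of ARHGAP8 itself are shared with a readthrough gene and lay between 4.02 and 14.8, below the floor on every array, so they do not check the labels. Of the melanocyte markers, MLANA, TYR, TYRP1, MITF, SOX10 and S100B were above the floor on all 4 arrays and PMEL on none. The summed signal of these 7 markers in the ARHGAP8 line was 8495 in 3D and 5169 in 2D, against 8774 in 3D and 7918 in 2D with the empty vector. Of the fibroblast markers COL3A1, LUM and PDGFRB, the keratinocyte markers KRT5 and KRT14 and the leukocyte marker PTPRC, none was above the floor on any array; COL1A1 and DCN were above it on all 4, as was the endothelial marker PECAM1, while CDH5 was not. The ARHGAP8 3D array had a median 18S ribosomal RNA control signal of 626, against 49.4, 27.7 and 44.9 on the ARHGAP8 2D, empty vector 3D and empty vector 2D arrays. Its part in the results that use this array was not tested.

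SKI, chosen for its difference between the lines, showed it on 1 of its 3 probe sets. Probe set 229265_at read 344 in 3D and 754 in 2D in the ARHGAP8 line, against 932 in 3D and 1108 in 2D in the empty-vector line. Both ARHGAP8 signals lay below both empty-vector signals. The ratio of the lines was -1.44 log2 in 3D, a 2.71-fold lower signal, and -0.56 log2 in 2D, a 1.47-fold lower signal. The 2 other probe sets of the gene, also above the floor on all 4 arrays, did not show this. Probe set 204270_at read 86.4 in 3D and 145 in 2D in the ARHGAP8 line, against 111 in 3D and 133 in 2D in the empty-vector line, so the lines overlapped. Probe set 213755_s_at read 255 in 3D and 183 in 2D in the ARHGAP8 line, against 165 in 3D and 171 in 2D in the empty-vector line, so both ARHGAP8 signals were the higher ones. Averaged over the cultures, the line differences of these 3 probe sets were -0.996, -0.12 and 0.36 log2, and the mean over the 3 was -0.25. Where each probe set lies on the SKI transcript was not analysed here. With 1 line per plasmid, an effect of ARHGAP8 and another difference between the lines cannot be told apart, nor, in RNA of whole cultures, can fewer cells that express a gene and less of its RNA per cell.

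**Figure D1:**
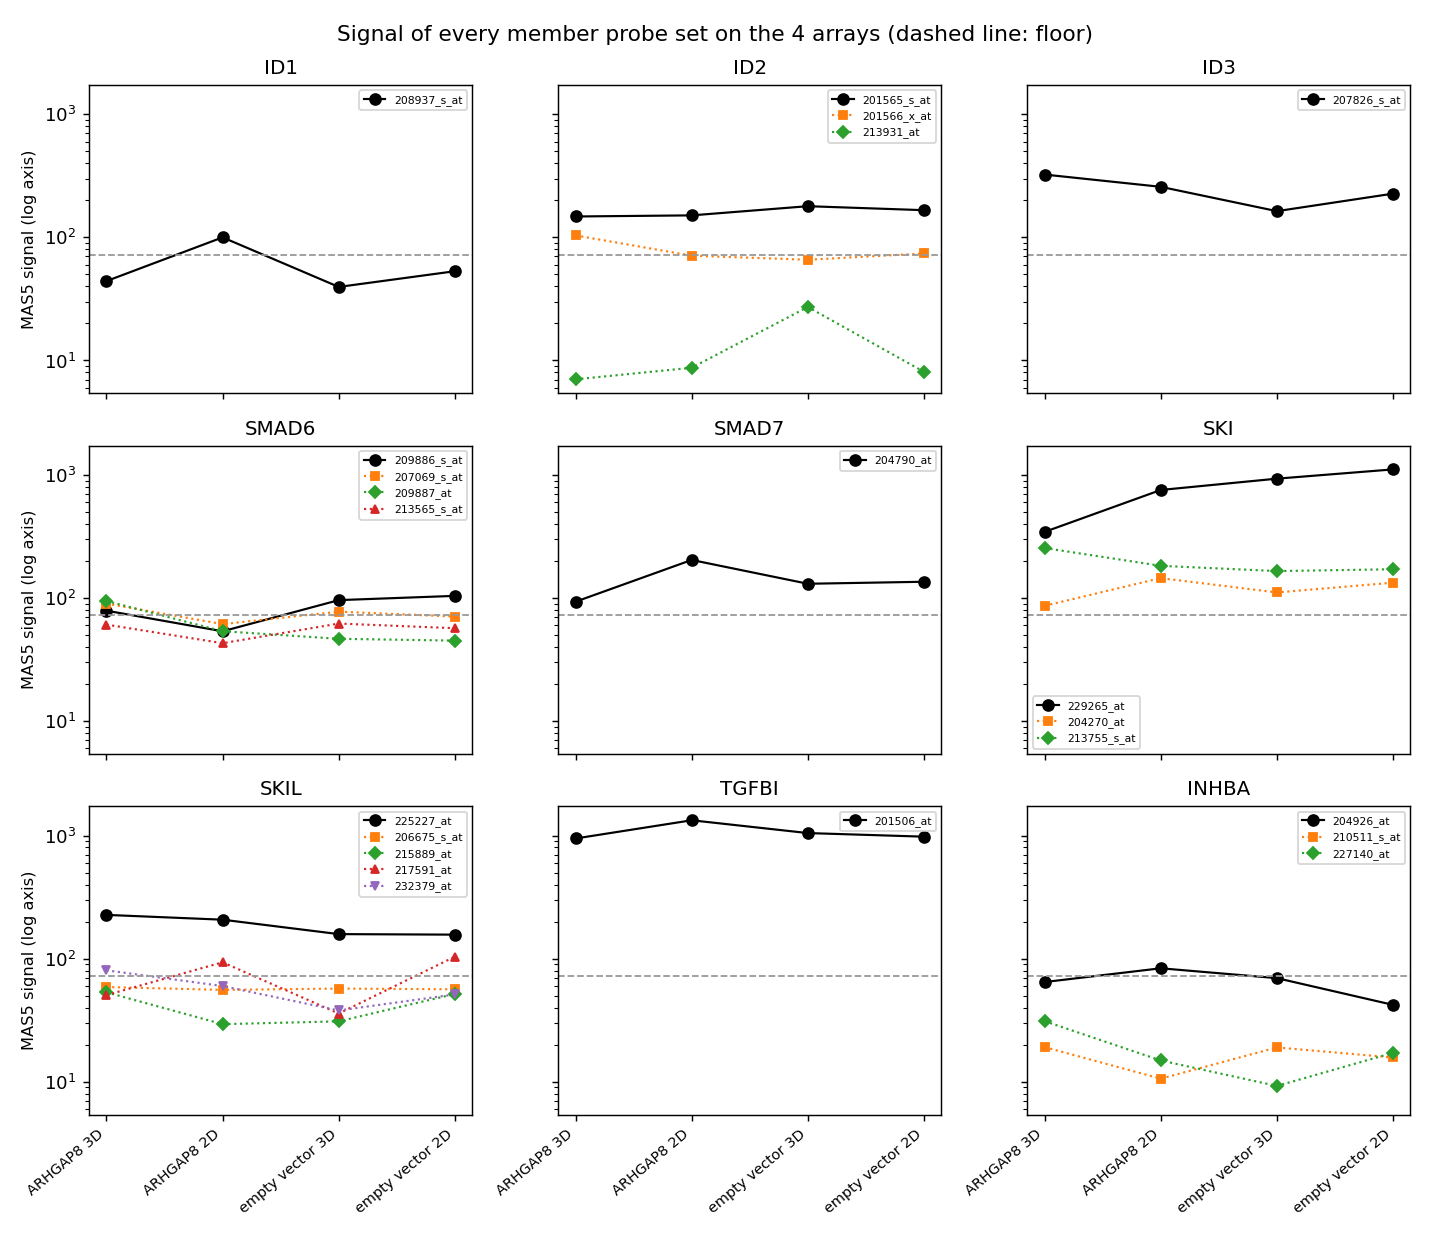
MAS5 signal (log axis) of all 22 member probe sets on the 4 arrays, 1 panel per gene; the black solid line is the probe set that represents the gene, coloured dotted lines are its other probe sets, and the dashed line is the floor of 72.3. SKI probe set 229265_at is lowest on the ARHGAP8 3D array, while 213755_s_at of the same gene is highest there.

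SKIL, the closest relative of SKI and itself a rapidly induced TGF-beta target, read the other way. Its probe set 225227_at gave 227 in 3D and 207 in 2D in the ARHGAP8 line, against 158 in 3D and 157 in 2D in the empty-vector line. Both ARHGAP8 signals were above both empty-vector signals, by 0.52 log2 in 3D and 0.40 log2 in 2D. Of its 4 other probe sets, 206675_s_at and 215889_at were below the floor on every array. Probe set 217591_at was above it only in 2D, at 93.5 in the ARHGAP8 line and 104 in the empty-vector line, and 232379_at only on the ARHGAP8 3D array, at 80.4. The SKIL difference between the lines thus also rests on 1 probe set.

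Among the inhibitory SMADs, SMAD7 had a single probe set, 204790_at, and the lines crossed over between the cultures. Its signal was 93.3 in 3D and 204 in 2D in the ARHGAP8 line, against 131 in 3D and 136 in 2D in the empty-vector line. The ARHGAP8 line was thus lower in 3D, by -0.48 log2, and higher in 2D, by 0.59 log2, a difference of differences of -1.07 that no test covers. SMAD6, which mainly restrains BMP receptors, was close to the floor. Its probe set 209886_s_at gave 78.9 in 3D and 53.7 in 2D in the ARHGAP8 line, against 96.1 in 3D and 104 in 2D in the empty-vector line. Both ARHGAP8 signals were the lower ones, although the 2D signal was below the floor, which makes the fold there at least 1.44-fold lower. The other SMAD6 probe sets did not share this: 207069_s_at was above the floor only in 3D, at 90.1 in the ARHGAP8 line and 77.5 in the empty-vector line, 209887_at only on the ARHGAP8 3D array, at 94.6, and 213565_s_at on no array.

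ID3 was the ID gene with the clearest difference between the lines in 3D. Its only probe set, 207826_s_at, gave 324 in 3D and 257 in 2D in the ARHGAP8 line, against 163 in 3D and 227 in 2D in the empty-vector line. The ARHGAP8 signals were the higher ones in both cultures, by 0.99 log2 in 3D, just under 2-fold, and by 0.18 log2 in 2D. ID2 gave probe sets that disagreed. Its probe set 201565_s_at gave 148 in 3D and 151 in 2D in the ARHGAP8 line, against 179 in 3D and 166 in 2D in the empty-vector line, a difference of -0.28 log2 in 3D and -0.14 log2 in 2D. A second ID2 probe set, 201566_x_at, whose type may cross-hybridise with other transcripts, gave 104 in 3D and 71.0 in 2D in the ARHGAP8 line, against 65.8 in 3D and 73.9 in 2D in the empty-vector line, at least 1.44-fold higher in the ARHGAP8 line in 3D. With the mean of the ID2 probe sets the average line difference was 0.02 log2, against -0.21 for the first probe set. The last one, 213931_at, is annotated to ID2B as well and was below the floor everywhere, at most 27.2. ID1 had 1 probe set, 208937_s_at, above the floor on the ARHGAP8 2D array alone. It gave 44.1 in 3D and 99.97 in 2D in the ARHGAP8 line, against 39.6 in 3D and 53.1 in 2D in the empty-vector line, so only a bound of at least 1.38-fold higher in the ARHGAP8 line in 2D can be given.

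TGFBI was read by 201506_at, far above the floor. Its signal was 947 in 3D and 1331 in 2D in the ARHGAP8 line, against 1048 in 3D and 980 in 2D in the empty-vector line. The lines overlapped, with -0.15 log2 in 3D and 0.44 log2 in 2D. INHBA was near or below the floor. Its probe set 204926_at gave 64.6 in 3D and 83.5 in 2D in the ARHGAP8 line, against 69.5 in 3D and 42.1 in 2D in the empty-vector line, so that only the ARHGAP8 2D signal passed the floor. The 2 other INHBA probe sets reached at most 31.1.

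By size, 1 of the 9 member genes was at least 2-fold lower in the ARHGAP8 line in 3D, which was SKI, where 1.26% of 14292 measured genes were; 0 were at least 2-fold higher, against 1.06%. In 2D 0 members were at least 2-fold apart in either direction, against 0.231% of genes in each. The choice of members used this contrast, and nothing is read from these counts. The median line difference over the 9 genes was -0.15 log2 in 3D and 0.21 log2 in 2D, where that over all measured genes was 0.00 in both. The 2D median is the bound of INHBA itself. ID1 and INHBA passed the floor only on the ARHGAP8 2D array, so they could not read lower there. In 3D both enter as 0 set by the floor. SKI, picked on this contrast, is in both medians, and nothing is read from them.

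**Figure D2:**
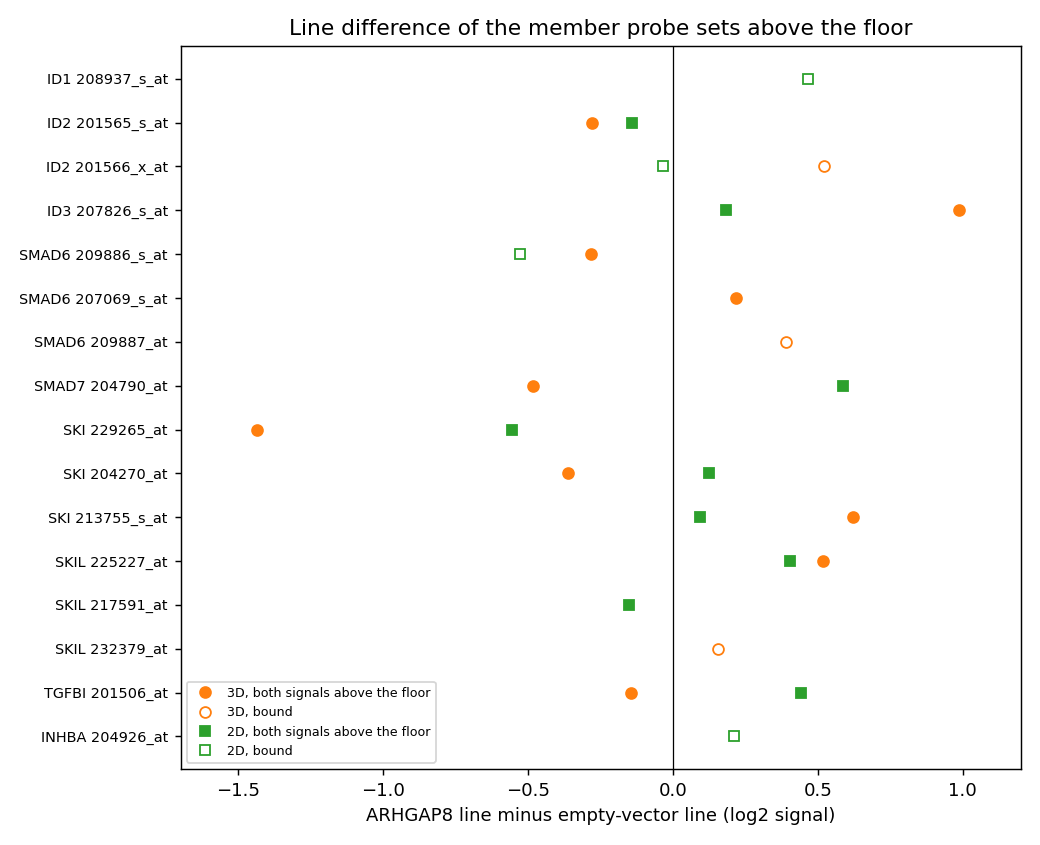
Difference between the ARHGAP8 and empty-vector lines (log2 signal, ARHGAP8 minus empty vector) for the 16 member probe sets above the floor on at least 1 array, with circles for 3D and squares for 2D; open symbols are bounds with 1 signal at the floor, and pairs with both signals at the floor are not drawn. SKI 229265_at lies furthest left at -1.44 in 3D, and the 2 other SKI probe sets lie between -0.36 and 0.62.

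The array with the highest signal differed among members, each read by the probe set that represents it. ID1, SMAD7, TGFBI and INHBA, 4 of the 9, had their highest signal on the ARHGAP8 2D array, where 20.5% of the 14292 measured genes had theirs. ID3 and SKIL were highest on the ARHGAP8 3D array (31.2% of genes), ID2 on the empty vector 3D array (28.4%), and SMAD6 and SKI on the empty vector 2D array (19.9%). ID1 and INHBA count as measured only through the array on which they are high, so nothing is read from that share. This grouping was noticed after the values were seen and carries no test. Some other probe sets of these genes peaked elsewhere. SKI 204270_at was highest on the ARHGAP8 2D array, at 145, and SKIL 217591_at on the empty vector 2D array, at 104. SKI 213755_s_at (255), ID2 201566_x_at (104), SMAD6 207069_s_at (90.1) and SMAD6 209887_at (94.6) were highest on the ARHGAP8 3D array. The ARHGAP8 2D array is also the one with the lowest summed melanocyte marker signal, 5169. The markers were not alike in this: SOX10 was lowest on the ARHGAP8 3D array, at 1114, and TYRP1 on the empty vector 2D array, at 161. Their part in the pattern was not tested.

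The comparison of Matrigel with collagen-coated plastic asks how these genes differed between the cultures. The rule that chose the members named the line difference of SKI, not this one. Matrix (Matrigel or type I collagen) and growth in 3D or 2D changed together, so their effects cannot be told apart. The culture difference was tested over both lines in limma, with plasmid and culture as additive terms, across 13239 genes. SKI fell in 3D by 0.69 log2 (moderated SE 0.19, 95% interval -1.08 to -0.30, Benjamini-Hochberg adjusted p 0.0283 in limma). Probe set 229265_at gave 344 in the ARHGAP8 line and 932 in the empty-vector line in 3D, against 754 and 1108 in 2D. Each line was lower in 3D, by -1.13 log2 in the ARHGAP8 line and by -0.25 log2 in the empty-vector line. Without the ARHGAP8 3D array the value is the -0.25 of the empty-vector line, with no test. The SKI call is not firm: it was lost in 8 of 9 alternative settings, with adjusted p in limma from 0.0116 to 0.727, and with the mean of the 3 probe sets the difference shrank to -0.33 (adjusted p 0.314 in limma). The other probe sets gave -0.51 for 204270_at and 0.22 for 213755_s_at. The single residual degree of freedom is shared with the line difference for which SKI was picked, so this p is not independent of that choice.

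SMAD7 had a similar mean difference and did not pass. It gave 93.3 in the ARHGAP8 line and 131 in the empty-vector line in 3D, against 204 and 136 in 2D. The difference was -1.13 log2 in the ARHGAP8 line and -0.05 log2 in the empty-vector line, a mean of -0.59 (moderated SE 0.28, 95% interval -1.16 to -0.02, adjusted p 0.222 in limma). Nearly all of it came from the ARHGAP8 line. Whether the culture difference of SMAD7 or SKI depended on the line could not be tested, since the design leaves no residual degree of freedom for it.

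With the floor applied, the other 5 tested members were within 0.20 log2 of 0 on average, and none passed. TGFBI was at -0.20 (95% interval -0.55 to 0.16), from -0.49 in the ARHGAP8 line and 0.10 in the empty-vector line. ID3 was at -0.07 (95% interval -0.57 to 0.43), from 0.33 in the ARHGAP8 line and -0.47 in the empty-vector line, which thus moved in opposite directions. ID2 was at 0.04 (95% interval -0.47 to 0.55), SMAD6 at 0.01 (95% interval -0.46 to 0.48) and SKIL at 0.07 (95% interval -0.43 to 0.57). These intervals leave room for culture differences of up to about the upper or lower bound given, so the members are not shown to be unaltered. ID1 and INHBA were above the floor on 1 array and could not be tested; their culture ratio in the ARHGAP8 line was a bound, at least 1.38-fold lower in 3D for ID1 and at least 1.16-fold lower for INHBA.

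In all, 0 of the 7 tested members rose in 3D and 1 fell, where 2.83% of all tested genes rose and 4.15% fell. The 1 that fell was SKI, picked through the same signals, so nothing is read from that count. At an unadjusted p under 0.05 in limma there were 2 of 7, SKI and SMAD7, both lower, where 21.0% of all tested genes were under it in either direction. In a fit over all 28651 probe sets above the floor on at least 2 arrays, 0 of the 12 member probe sets tested passed, where 1.63% rose and 1.87% fell; SKI 229265_at came closest, with an adjusted p of 0.0744 in limma. The median culture difference was -0.07 over the 7 members and 0.03 over all genes tested. In the ARHGAP8 line alone, SMAD7 (2.18-fold) and SKI (2.19-fold) were at least 2-fold lower in 3D, 2 of 9 members where 1.83% of measured genes were, and 0 were at least 2-fold higher (1.71%). In the empty-vector line 0 were at least 2-fold lower (1.21%) or higher (1.63%). These single ratios have no replicate check. The SKI ratio also uses the low ARHGAP8 3D signal that is part of the line difference for which SKI was chosen. Nothing is therefore read from these counts. The 3' over 5' signal ratio of the ACTB controls, a measure of RNA quality, was 1.32 in the ARHGAP8 line and 1.23 in the empty-vector line in 3D, against 1.05 and 1.10 in 2D. That of the GAPDH controls was 0.925 and 0.901 in 3D, against 0.899 and 0.874 in 2D. Their part in the culture results was not tested.

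**Figure D3:**
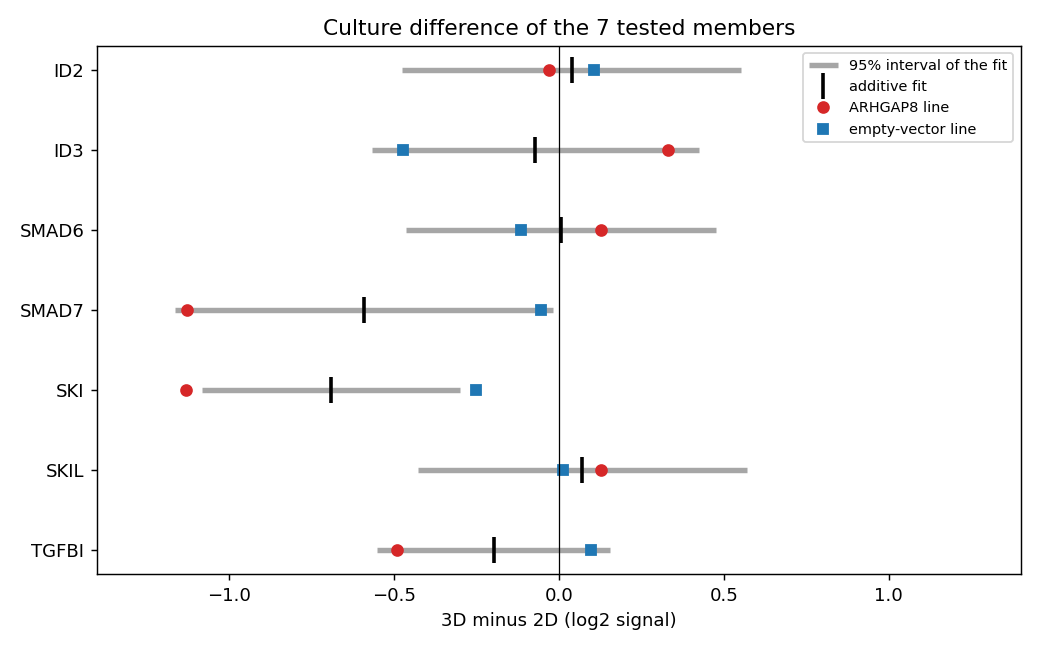
Culture difference (3D minus 2D, log2 signal) of the 7 tested members in the ARHGAP8 line (circles) and the empty-vector line (squares), with the additive fit (black tick) and its 95% interval (grey bar). The SKI and SMAD7 intervals lie below 0, and their circles lie near -1.13, well apart from their squares at -0.25 and -0.05. The SMAD6 circle is a bound, since its ARHGAP8 2D signal was below the floor.

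The rest of the pathway was followed through 6 lists with 115 other genes, of which 77 were tested. Of these, 3 rose in 3D, 1 fell and 73 did not pass, where 2.83% of all tested genes rose and 4.15% fell. The lists were chosen with earlier results of these data known, so the counts are given as a description. None of the 15 tested ligands passed, with a median of 0.10. TGFB2, a TGF-beta ligand, was at 0.37 and NODAL, an embryonic ligand, at 0.41. None of the 14 receptors and co-receptors passed, with a median of 0.03. BMPR2, the type II BMP receptor, was at 0.48, with 2 of its 4 other probe sets opposite, and the activin-type receptor gene ACVR1C was at 0.36. The 5 receptor-activated and common SMADs had a median of -0.07 and 0 passed. SMAD3, which carries TGF-beta and activin signals, was at -0.33, with both other probe sets opposite, and SMAD4, the common partner of the activated SMADs, at -0.19, with its other probe set at 0.39.

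Of the 12 extracellular modulators, CHRDL1 rose and THBS1 fell. CHRDL1, which encodes a secreted BMP antagonist, gave 579 in the ARHGAP8 line and 775 in the empty-vector line in 3D, against 351 and 439 in 2D, and rose by 0.77 log2 (moderated SE 0.17, adjusted p 0.00763 in limma). Its signals in 3D were above those in 2D without overlap, but without the intensity trend it did not pass (adjusted p 0.0595 in limma). Nor did it pass in the setting with the mean of probe sets per gene, at the same 0.77 (adjusted p 0.0979 in limma). THBS1, a matrix glycoprotein that can activate latent TGF-beta, gave 907 in the ARHGAP8 line and 610 in the empty-vector line in 3D, against 2908 and 1513 in 2D. It fell by 1.496 log2 (adjusted p 5.89e-06 in limma), while 2 of its 6 other probe sets above the floor on any array went the opposite way, and with the mean of all probe sets it did not pass (-0.68, adjusted p 0.144 in limma). NBL1, a secreted BMP antagonist, was at -0.37 and DCN, a proteoglycan that binds TGF-beta, at 0.35, neither of them past the test.

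Of the 15 intracellular modulators 0 passed, with a median of -0.01. SMURF2, a ubiquitin ligase that acts on TGF-beta receptors and SMADs, was at -0.50, and the co-repressor gene TGIF2 at 0.49, with its other probe set at -0.02. Of the 17 other target genes 2 rose (2.83% of all tested genes) and 0 fell (4.15%), with a median of 0.20. SNAI2, a transcription factor of neural crest and melanocyte cells, gave 2435 in the ARHGAP8 line and 2969 in the empty-vector line in 3D, against 1354 and 1555 in 2D. It rose by 0.89 log2 (moderated SE 0.16, adjusted p 0.00174 in limma). In the setting with the mean of probe sets per gene SNAI2 kept the same 0.89 but did not pass (adjusted p 0.0843 in limma). BHLHE40, a transcriptional repressor that hypoxia induces as well, rose by 1.96 log2 (adjusted p 5.79e-07 in limma), with 1.97 in the ARHGAP8 line and 1.95 in the empty-vector line; its other probe set was at 0.63, and with the mean of its probe sets it did not pass (1.29, adjusted p 0.0781 in limma). CDKN1A, a cell cycle inhibitor, was at 0.66 and ATOH8, a BMP target, at 0.62, neither of them past the test.

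**Figure D4:**
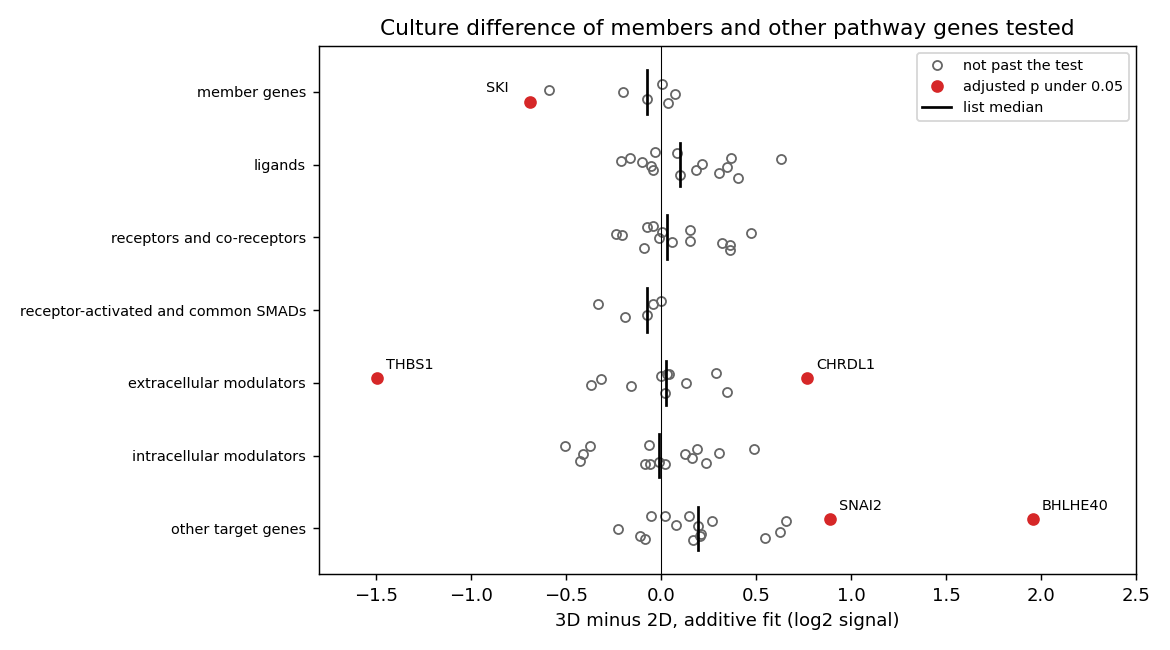
Culture difference (3D minus 2D, additive fit, log2 signal) of the 7 tested members and of the tested genes in the 6 pathway lists, 1 point per gene and list; filled points have an adjusted p under 0.05 in limma and black ticks are list medians. Only SKI, THBS1, CHRDL1, SNAI2 and BHLHE40 are filled, and the list medians lie between -0.07 and 0.20.

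The regions before the members' start sites were searched for a pair of SMAD-binding sequences, to show which members carry them. RefSeq promoters (GRCh38.p14) were found for 8 of the 9 genes, 10 promoters in all, and the 250 bases before each start were read; SKI had no entry. The motifs were GTCTAGAC, the palindrome bound by SMAD3 and SMAD4, and GGCGCC, a GC-rich element bound by SMADs of the BMP branch; both read the same on either strand, and they do not overlap each other. GTCTAGAC occurred in 1 of the 10, that of SMAD6, and in 0.182% of 35116 promoters. GGCGCC occurred in 2, those of SKIL and TGFBI, and in 16.4% of all promoters. In the 60-base windows, all from the plus strand and written 5′ to 3′, capitals mark the motif; they lie at chr15:66702176-66702235 for SMAD6, chr3:170357498-170357557 for SKIL and chr5:136028850-136028909 for TGFBI.
SMAD6: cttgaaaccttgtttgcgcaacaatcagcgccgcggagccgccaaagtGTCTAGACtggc
SKIL: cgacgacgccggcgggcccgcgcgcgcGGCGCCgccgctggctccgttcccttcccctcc
TGFBI: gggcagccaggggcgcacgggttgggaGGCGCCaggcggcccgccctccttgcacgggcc
The SMAD6 motif begins 12 bases before the annotated start, that of SKIL 190 and that of TGFBI 111 bases before it. These 3 genes did not share a pattern on the probe sets that represent them. SMAD6 read lower in the ARHGAP8 line in both cultures (a bound in 2D), SKIL higher in both, and TGFBI higher in 2D and lower in 3D. Other probe sets of SMAD6 and SKIL did not all share these directions. A match is a description of the letters and not evidence of binding.

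The genes with the most similar pattern were taken as those with the smallest distance between mean-centred log2 signals over the 4 arrays, among 11195 other genes above the floor on all of them. For SKI, read by 229265_at, these were CDC42BPB at 0.07, GRINA at 0.16 and TSC2 at 0.16. The other SKI probe sets were not matched, and 213755_s_at was highest on the array where 229265_at was lowest. CDC42BPB, which encodes a kinase that binds the GTPase CDC42, gave 88.4 in 3D and 183 in 2D in the ARHGAP8 line, against 226 in 3D and 271 in 2D in the empty-vector line. For SMAD7 the nearest were ZMIZ2 at 0.10, TPM2, a tropomyosin, at 0.13 and YWHAH, a 14-3-3 protein gene, at 0.13. For ID3 they were PFKFB3, an enzyme that controls glycolysis, at 0.09, SERINC5 at 0.10 and ANXA7 at 0.10. With 4 arrays such likeness describes these arrays and carries no test.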

How the data were processed

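RNA from the 4 cultures went onto 1 Affymetrix HG-U133 Plus 2.0 array each. The values the authors deposited are linear signal intensities, 1 for each probe set on each array. They came from MAS5, according to the submitters' processing notes; version and detection calls are not given in the sources used here. Per the labels' protocols, RNA was primed from poly(T) and amplified in a pair of in vitro transcription rounds, which favours the 3' end of transcripts.

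From these, the arrays were rescaled to 1 trimmed mean (2% off each end, 150.0), floored at 72.3 and log2-transformed; 62 control probe sets were left out. Gene names came from the platform's annotation table and were brought up to date by RefSeq gene ID; 41091 carried 1 symbol, 1801 several and 11721 none. Of 19775 genes, the 13239 above the floor on at least 2 arrays were fitted in limma 3.58.1 (R 4.3.3) with additive terms for plasmid and culture. The test was eBayes with an intensity trend, two-sided, Benjamini-Hochberg, threshold 0.05. It was also run on simulated data with additive effects alone, which do not show how it handles an interaction. The 1 residual degree of freedom of the fit is the line-by-culture difference of differences. The error of the fit therefore holds array and culture noise and any real interaction, but not variation between separately made lines. The moderated SE draws on genes of like signal (prior degrees of freedom 19.4). The members and lists were chosen with earlier results of these data known. Pathway genes named are those past the test plus, per list, the 2 with the largest other differences above the floor on all arrays. Alternatives covered scaling, floor, filter, probe choice, variance trend and leaving out each array. DCT was not used here.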

Additional observations from a re-analysis of the deposited data

How the results depend on the processing

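The count of members that fell in 3D was 1 in the fit as reported and 1 when every gene tested had to exceed the floor on 4 arrays. It was 0 after quantile or cyclic loess normalization, with no floor, with a floor of 36.1, with no filter, with the mean of the probe sets of a gene, without an intensity trend and in the fit on all probe sets. The SKI difference was below 0 in all 9 (-0.69 to -0.33). The settings of floor, filter, trend and all probe sets could not change it, however. They left the signals of the probe set that represents SKI as they were, and each gave the same -0.69. It became -0.63 after either normalization and -0.33 with mean probe sets. In limma, the members with an unadjusted p under 0.05 numbered 0 with no filter or with mean probe sets and 1 or 2 in the other settings. The count of members that rose was 0 throughout. Pathway genes that rose were 3 and that fell 1, and both counts were 0 with no filter and with mean probe sets; without a trend 2 rose. Over all genes, 375 rose and 550 fell as reported, against 271 and 293 after quantile normalization, 319 and 344 after cyclic loess, 299 and 380 with the lower floor, 445 and 626 when the floor had to be exceeded on 4 arrays, 213 and 212 without a trend, 25 and 12 with mean probe sets, and 0 and 0 with no filter, where 1876 genes had an unadjusted p under 0.05 in limma. Culture differences near 0 changed sign for ID2 (-0.0229 after quantile and -0.000707 after cyclic loess normalization), SMAD6 (-0.0592 and -0.0684) and SKIL (-0.0596 with mean probe sets); the cause was not tested. Member genes at least 2-fold apart between the lines in 3D numbered 1 as reported, 2 after either normalization, where ID3 joined SKI, and 0 with mean probe sets. For culture in the ARHGAP8 line they numbered 2 as reported, 1, SMAD7, with mean probe sets, and 3 with no floor or with the lower floor, where ID1 joined SMAD7 and SKI. Leaving out either array of the ARHGAP8 line leaves the ratio of the empty-vector line alone, and the reverse; over these, SKI ranged from -1.13 to -0.25, SMAD7 from -1.13 to -0.05, TGFBI from -0.49 to 0.10 and ID3 from -0.47 to 0.33. With 1 array per group there were no replicates to pair. The additive fit itself sets 3D against 2D within each line. Signal over background limits ID1, INHBA and SMAD6 most.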

Other observations

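The remaining members above the floor on all 4 arrays had these nearest genes. For SKIL the nearest were PHAX at 0.03, POGLUT2 at 0.04 and PIWIL2 at 0.06 (distance between mean-centred log2 signals). For TGFBI they were TBC1D23 at 0.05, ECE1, which encodes an endothelin-converting enzyme, at 0.06 and F2R, a thrombin receptor gene, at 0.06. For ID2 they were NR3C1, the glucocorticoid receptor gene, POMGNT1 and ZSWIM6, each at 0.03. Small distances were common for these genes. Within 1 fixed distance lay 1649 genes for ID2, 460 for TGFBI and 342 for SKIL, against 81 for ID3, 31 for SMAD7 and 4 for SKI. A smaller distance is thus not a more particular likeness.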
